A study of Mus musculus with 12 samples.

Results

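The genes described are those that encode the proteins of the cytosolic ribosome. They were taken by symbol as every Rpl or Rps symbol followed by a number, with Rplp0, Rplp1, Rplp2 and Rpsa added. The S6 kinase genes, whose symbols start with Rps6k, and symbols marked as pseudogenes, 14 symbols in all, were left out. This gave 86 genes of the 22619 symbols measured, 52 named for the large subunit and 34 for the small. All 86 were listed at a single locus, and they lie on 19 chromosomes. The rule also takes in some genes whose products are not standard ribosomal proteins, such as Rps19bp1, which encodes a binding partner of Rps19, and Rpl7l1, a relative of Rpl7. It leaves out Fau and Gnb2l1, whose products are ribosomal proteins under other names.

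The 12 libraries were made from embryos and from embryonic stem cells (ESC) of the mouse by Smart-seq2, which captures polyadenylated RNA and copies it into full-length cDNA. C57BL/6 embryos formed 3 groups. In the first, called control embryo, 2 libraries were wild type. The second, KO embryo, held 3 libraries with knockout of Dcaf11. A further 3 knockout libraries, whose titles carry the word arrest, form the group KO arrest. For 129Sv ESC there were 2 control libraries (control ESC) and 2 after Dcaf11 knockdown (KD ESC). The Dcaf11 protein brings substrates to a cullin-based ubiquitin ligase, CUL4-DDB1. The labels give no stage, no sex, no number of cells per library and no account of what was deleted. Nor do they say whether libraries of a group were separate embryos or cultures. The p-values therefore cover the spread between these libraries alone, and that spread may be technical.

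A cytosolic ribosome is built from a large subunit, which forms peptide bonds and holds the exit tunnel for the new protein, and a small subunit, which binds mRNA and decodes it. Nearly every protein is present once per ribosome, and most mRNAs for them start with a tract of pyrimidines at the 5' end, called a TOP motif, through which mTOR signalling and the RNA-binding protein Larp1 control their translation. A mouse oocyte stores ribosomes and mRNA, much of the stored mRNA is destroyed after fertilization, and the embryo's own genome then takes over the supply. ESC divide fast and express ribosomal protein genes strongly.

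The promoters were searched for runs of C and T, the letters of the pyrimidine tract, and 8 are shown because the results below turn on these genes. Each window runs from 60 bases before the transcript start to 20 bases after it (RefSeq, GRCm38.p6), printed 5' to 3' on the gene's strand, with runs of at least 8 C or T in capitals. The first 4 have such a run and passed the test in both knockout groups. Rps4x and Rpl41 have none, although Rps4x had the largest rise in KO arrest and Rpl41 the highest level. Rps27l and Rpl3l are paralogues that stood apart from most of the genes. RefSeq lists 2 starts for each of these paralogues, and the first along the chromosome is shown. A run was accepted anywhere in the window, so it need not be a TOP motif. The runs printed for Rpl26 and Rps27l lie before the start, outside the mRNA that begins there.
Rpl26, chr11:68901506-68901585, plus strand: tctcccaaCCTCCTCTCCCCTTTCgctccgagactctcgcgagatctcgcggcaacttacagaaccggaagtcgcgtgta
Rpl38, chr11:114668520-114668599, plus strand: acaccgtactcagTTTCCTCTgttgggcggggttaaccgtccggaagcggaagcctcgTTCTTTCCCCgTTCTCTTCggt
Rps6, chr4:86857348-86857427, minus strand: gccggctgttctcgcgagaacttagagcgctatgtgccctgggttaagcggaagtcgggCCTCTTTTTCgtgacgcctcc
Rpl15, chr14:18270967-18271046, minus strand: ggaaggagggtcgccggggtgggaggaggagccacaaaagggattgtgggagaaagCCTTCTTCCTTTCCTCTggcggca
Rps4x, chrX:102189372-102189451, minus strand: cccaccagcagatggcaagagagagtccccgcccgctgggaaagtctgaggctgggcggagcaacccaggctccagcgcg
Rpl41, chr10:128549149-128549228, minus strand: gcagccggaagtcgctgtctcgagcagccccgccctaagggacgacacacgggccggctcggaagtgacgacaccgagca
Rps27l, chr9:66946026-66946105, plus strand: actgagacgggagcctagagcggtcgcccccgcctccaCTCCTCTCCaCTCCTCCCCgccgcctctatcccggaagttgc
Rpl3l, chr17:24727766-24727845, plus strand: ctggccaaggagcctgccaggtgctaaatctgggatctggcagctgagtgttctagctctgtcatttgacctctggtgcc

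Of the 86 genes 65 had a promoter entry. A run of at least 8 C or T on the gene's strand was present in 40 of them (61.5%), against 34.5% of the promoters of all 27025 genes in the table. CTTTC, which can lie inside such a run and was searched on the gene's strand, was present in 23 (35.4%) against 12.03%. CCGGAAG, the core letters of sites for ETS factors such as GABPA, was present on either strand in 14 (21.5%) against 5.47%. CTCGCGAG, a palindrome that reads the same on both strands, was present in 7 (10.8%), namely Rpl10a, Rpl12, Rpl26, Rpl27a, Rps19, Rps28 and Rps6, against 0.507% of all promoters. The letters TATAA, on the gene's strand, were present in 7 (10.8%) against 7.59%, and ATGGCGGC, on either strand, in 1 (1.54%) against 0.551%. These are matches of letters in a fixed window and do not show binding or, for the run of C and T, a TOP motif.

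Expression was deposited as FPKM, a read count per length of transcript and per number of reads, without the counts. Coverage at 1 FPKM, which is proportional to depth, ranged from 0.373 to 2.01 over the libraries and was 1.22 to 2.01 in control embryo, 0.585 to 1.32 in KO embryo and 0.373 to 0.659 in KO arrest. Control embryo 1 stood apart: it was the deepest library, had the fewest genes at 1 FPKM or more (6573, against 8535 to 12061 in the others), and 10 of the 86 genes were listed at 0 in it, against 1 or 2 in every other library. A listed 0 of such a gene is not read as absence. Dcaf11 had 2.82 and 14.3 FPKM in control embryo, 3.99, 2.84 and 0.184 in KO embryo and 4.43, 0.422 and 6.02 in KO arrest, so it did not separate the embryo groups and does not check those labels. In ESC it stood at 6.48 and 4.52 in the control and at 1.69 and 1.83 FPKM in KD ESC, with no overlap (log2 fold change −1.22 ± 0.21, SE, adjusted p = 0.0521, limma). The 8 ESC markers summed to 2331 to 3111 FPKM in ESC, 671 and 733 in control embryo, 1699 to 3022 in KO embryo and 1387 to 1985 in KO arrest, so the sums of KO embryo and ESC overlapped. Most of the sum in embryos was Dppa5a, at 620 to 2986 FPKM there and 356 to 698 in ESC, while Pou5f1 and Nanog stood at 246 to 356 FPKM in ESC and at most 10.9 in embryos. The 6 trophectoderm markers summed to 0.592 and 22.7 FPKM in control embryo, 23.4 to 33.0 in the knockout embryos and 23.9 to 51.3 in ESC. Cdx2 was at 0 in every embryo library. Of 3 tested against control embryo, 1, Tfap2c, was called higher in both knockout groups. Log2 fold changes were above 0 for 1 of the 3 in KO embryo (median −0.98) and 2 in KO arrest (median 0.43). Ribosomal protein genes have many processed copies in the mouse genome. Of the 85 with a coding sequence 74 had at least 1 near-identical copy elsewhere and 41 at least 5, up to 56 for Rpl21, and the counting of shared reads and the strand are not stated, so single values are uncertain.

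The 86 genes together took up the smallest share of the transcriptome in control embryo and the largest in KO arrest. Their summed FPKM was 1.10% and 1.27% of all FPKM in control embryo, 3.85%, 2.92% and 3.87% in KO embryo, and 7.99%, 11.2% and 10.5% in KO arrest. All ESC libraries lay between 4.88% and 5.13%. The 3 embryo groups did not overlap, and the KO embryos lay below and KO arrest above every ESC library. As ratios of mean summed FPKM, KO embryo was 3.13-fold and KO arrest 11.9-fold above control embryo, while KD ESC was at 0.981 times control ESC. The log2 ratios behind the first 2 values, 1.65 and 3.57, were 0.90 and 2.88 with median-of-ratios scaling, and that of KO arrest was 3.06 in TPM, the share of all FPKM. These sums carry no test. In bulk RNA, fewer cells of a type and less RNA per cell cannot be told apart, and a share of FPKM is not an amount per cell.

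**Figure D1:**
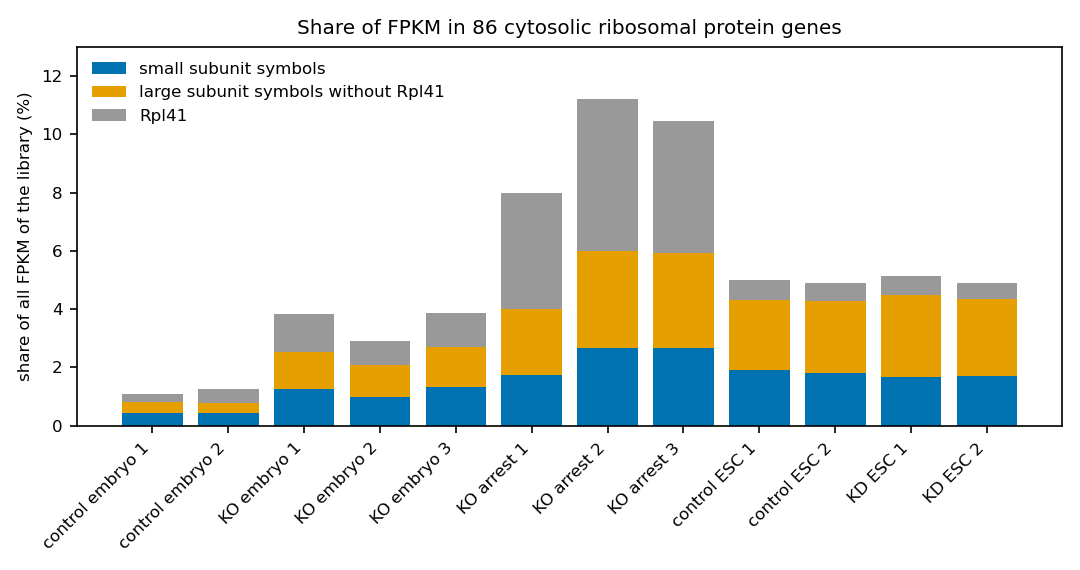
Share of all FPKM (percent) taken by the 86 ribosomal protein genes in each of the 12 libraries, as stacked bars for small-subunit genes, large-subunit genes without Rpl41, and Rpl41. The control embryos lie at 1.10% and 1.27%, the KO embryos between 2.92% and 3.87%, KO arrest between 7.99% and 11.2% and the ESC libraries near 5%.

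Much of the sum in embryos came from a single short gene. Rpl41 (mm9 chromosome 10, 127985166 to 127986224, minus strand) encodes the smallest ribosomal protein, which sits at a bridge between the subunits. It made up 26.1% and 37.4% of the summed FPKM of the 86 genes in control embryo, 29.3% to 33.8% in KO embryo and 43.3% to 50.0% in KO arrest, but 11.2% to 13.7% in ESC. Its embryo and ESC libraries did not overlap in this share. Without Rpl41 the share of all FPKM was 0.814% and 0.795% in control embryo, 2.08% to 2.74% in KO embryo and 4.17% to 6.33% in KO arrest, so the order of the embryo groups was the same and they still did not overlap. ESC lay between 4.31% and 4.503% by this measure, inside the range of KO arrest.

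The level of the middle gene moved as the sum did. The median FPKM of the 86 genes was 9.38 and 15.7 in control embryo, 65.3, 46.4 and 63.2 in KO embryo and 127, 219 and 216 in KO arrest, and 93.8 to 121 in ESC. At least 100 FPKM was reached by 8 and 6 of the genes in control embryo, 24 to 34 in KO embryo, 49 to 57 in KO arrest and 41 to 49 in ESC. Without Rpl41 the ratio of the large-subunit to the small-subunit sum was 0.871 and 0.844 in control embryo, 1.02 to 1.07 in KO embryo and 1.23 to 1.28 in KO arrest. In ESC it was 1.26 and 1.37 in the control and 1.70 and 1.57 in KD ESC, again with no overlap.

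KO embryo was compared with control embryo to ask which of these genes differ between the libraries labelled knockout and wild type. Of the 86 genes 40 rose and 0 fell at an adjusted p under 0.05 (limma, Benjamini-Hochberg over all 11795 genes tested), where 4.86% of all genes rose and 1.5% fell (6.36% in either direction). All fold changes are on the log2(FPKM + 1) scale, and their median was 1.86 over the 86 genes and 0.31 over all genes tested. In 65 genes every KO embryo library lay above both controls (24.2% of all genes), in 0 below (12.1%), and in 21 the groups overlapped. Both subunits took part, with 21 of 52 large-subunit genes and 19 of 34 small-subunit genes called.

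Rpl23a, which lines the tunnel exit and helps to dock the signal recognition particle (mm9 chromosome 11, 77994437 to 77997086), stood at 34.9 and 20.9 FPKM in control embryo and at 178, 193 and 196 in KO embryo. The KO embryos lay close together and apart from the controls (log2 fold change 2.76 ± 0.36, SE, adjusted p = 0.00471). Rpl38, a small protein whose loss alters the axial skeleton of mice, stood at 1.99 and 1.16 against 22.5, 18.5 and 51.0 FPKM (3.50 ± 0.54, adjusted p = 0.0101). Here too the groups did not overlap.

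Among genes that passed, the 5 largest rises were those of Rpl26, Rps23, Rpl34, Rpl5 and Rpl35a, with log2 fold changes of 5.27, 3.99, 3.95, 3.92 and 3.57 and adjusted p from 0.0108 to 0.0394. Rpl26, at the tunnel exit (mm9 chromosome 11, 68715068 to 68718036), was listed at 0 and 11.5 FPKM in control embryo and at 99.6, 129 and 191 in KO embryo. Rpl34 and Rpl5 were also listed at 0 in control embryo 1, and Rpl35a in control embryo 2. Without control embryo 1 the log2 fold changes were 3.45 for Rpl26 (adjusted p = 0.00969), 2.88 for Rps23 (0.0250), 2.06 for Rpl34 (0.0621), 3.01 for Rpl5 (0.0530) and 4.11 for Rpl35a (0.0584). Rpl26 and Rps23 thus passed without that library and the other 3 did not.

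By role, members of most large-subunit groups rose. Of the 4 stalk genes, whose products recruit elongation factors, Rplp1 rose (151 and 179 FPKM against 649, 502 and 510, log2 fold change 1.73 ± 0.32, adjusted p = 0.0165), while Rplp0 (1.38, adjusted p = 0.0787), Rplp2 (1.62, 0.0813) and Rpl12 (0.51, 0.645) did not pass. Rpl5 and Rpl11, which travel as a particle with the small ribosomal RNA of the large subunit and bind Mdm2, both rose. Rpl11 stood at 0.648 and 2.97 against 15.5, 18.5 and 23.2 FPKM (2.95 ± 0.57, adjusted p = 0.0186). Near the peptidyl transferase centre Rpl8 (3.20, adjusted p = 0.0213) and Rpl10 (1.97, 0.0364) rose and Rpl3 (1.73, 0.271) did not pass. Of 10 genes of the exit tunnel 3 rose, Rpl23a, Rpl26 and Rpl37. Both bridge genes, Rpl24 (2.04, adjusted p = 0.0229) and Rpl41 (1.63, 0.0329), rose. Rpl10a, of the mobile L1 stalk, did not pass (1.34, 0.153).

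In the small subunit 6 of 13 genes of the decoding centre, head and mRNA path rose, among them Rps23, Rps15, Rps26, Rps28 and Rps20. Rps23, which touches the decoding centre, stood at 1.86 and 12.3 FPKM in control embryo and at 139, 57.3 and 115 in KO embryo. Rps6, the S6 kinase substrate, stood at 4.74 and 21.2 against 128, 94.8 and 155 FPKM (log2 fold change 3.46 ± 0.58, adjusted p = 0.0117). Rps27a, made as a fusion with ubiquitin, stood at 8.52 and 21.8 against 162, 81.3 and 160 FPKM (3.13 ± 0.55, adjusted p = 0.0144). In each of these 3 genes the groups were apart. Of 9 genes picked from those mutated in Diamond-Blackfan anaemia 6 rose, among them Rpl5, Rpl11, Rpl35a, Rps24 and Rps26.

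Genes that did not pass were mostly higher too, with wide spread. Rps18, which lies in the head of the small subunit, stood at 6.77 and 0.289 FPKM against 64.6, 44.7 and 72.2 (log2 fold change 4.25 ± 1.81, adjusted p = 0.194). Rps4x, the X-linked copy of Rps4, stood at 0.324 and 0.316 against 0, 7.84 and 54.2, so the KO embryos ranged across the controls (2.58, adjusted p = 0.255). Rps27l, an abundant p53 target, stood at 566 and 788 against 588, 418 and 592 FPKM (−0.34, adjusted p = 0.580). Rpl3l, the striated-muscle relative of Rpl3, stood at 11.6 and 2.14 against 4.91, 0.461 and 1.04 (−1.28, adjusted p = 0.365).

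The count of 40 depends on single libraries. Leaving out control embryo 1 gave 24 (22 of them among the 40). Of the genes named above that rose, those lost were Rpl5, Rpl8, Rpl10, Rpl15, Rpl34, Rpl35a, Rpl37, Rpl41 and Rps20, with log2 fold changes of 1.16 for Rpl41 to 4.11 for Rpl35a. Leaving out a KO embryo library gave 7 for replicate 1 (6 higher and 1 lower), 26 for replicate 2 and 4 for replicate 3, while the median log2 fold change of the genes stayed between 1.80 and 2.12 with each library left out and that of all genes between 0.02 and 0.74. With median-of-ratios scaling 18 rose, with a median of 1.22 against −0.04 for all genes. Oocyte transcripts moved with this contrast: the sum over 9 oocyte markers was 22848 and 33751 FPKM in control embryo and 7781 to 11456 in KO embryo, and 2 of 8 tested fell. The sum over 6 two-cell markers was 590 and 1033 FPKM against 128 to 182, with 3 of 6 called lower, Usp17lc, Zscan4c and Zscan4f. The ESC marker sums given above were higher in KO embryo, with 1 of 8 called, Dppa5a. Only 2 of the 8 had a log2 fold change above 0, and the median over the 8 was −0.63. Markers of blood, with a sum of 57.1 and 108 FPKM against 199 to 299 and 0 of 2 tested called, and of fibroblasts, with 17.1 and 67.2 against 59.2 to 92.9 and 0 of 7 called, were also measured. Cumulus and granulosa cell markers summed to 17.1 and 15.5 FPKM against 0.337 to 4.46, with 1 of 2 tested called lower. The part of these differences in the result was not tested.

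**Figure D2:**
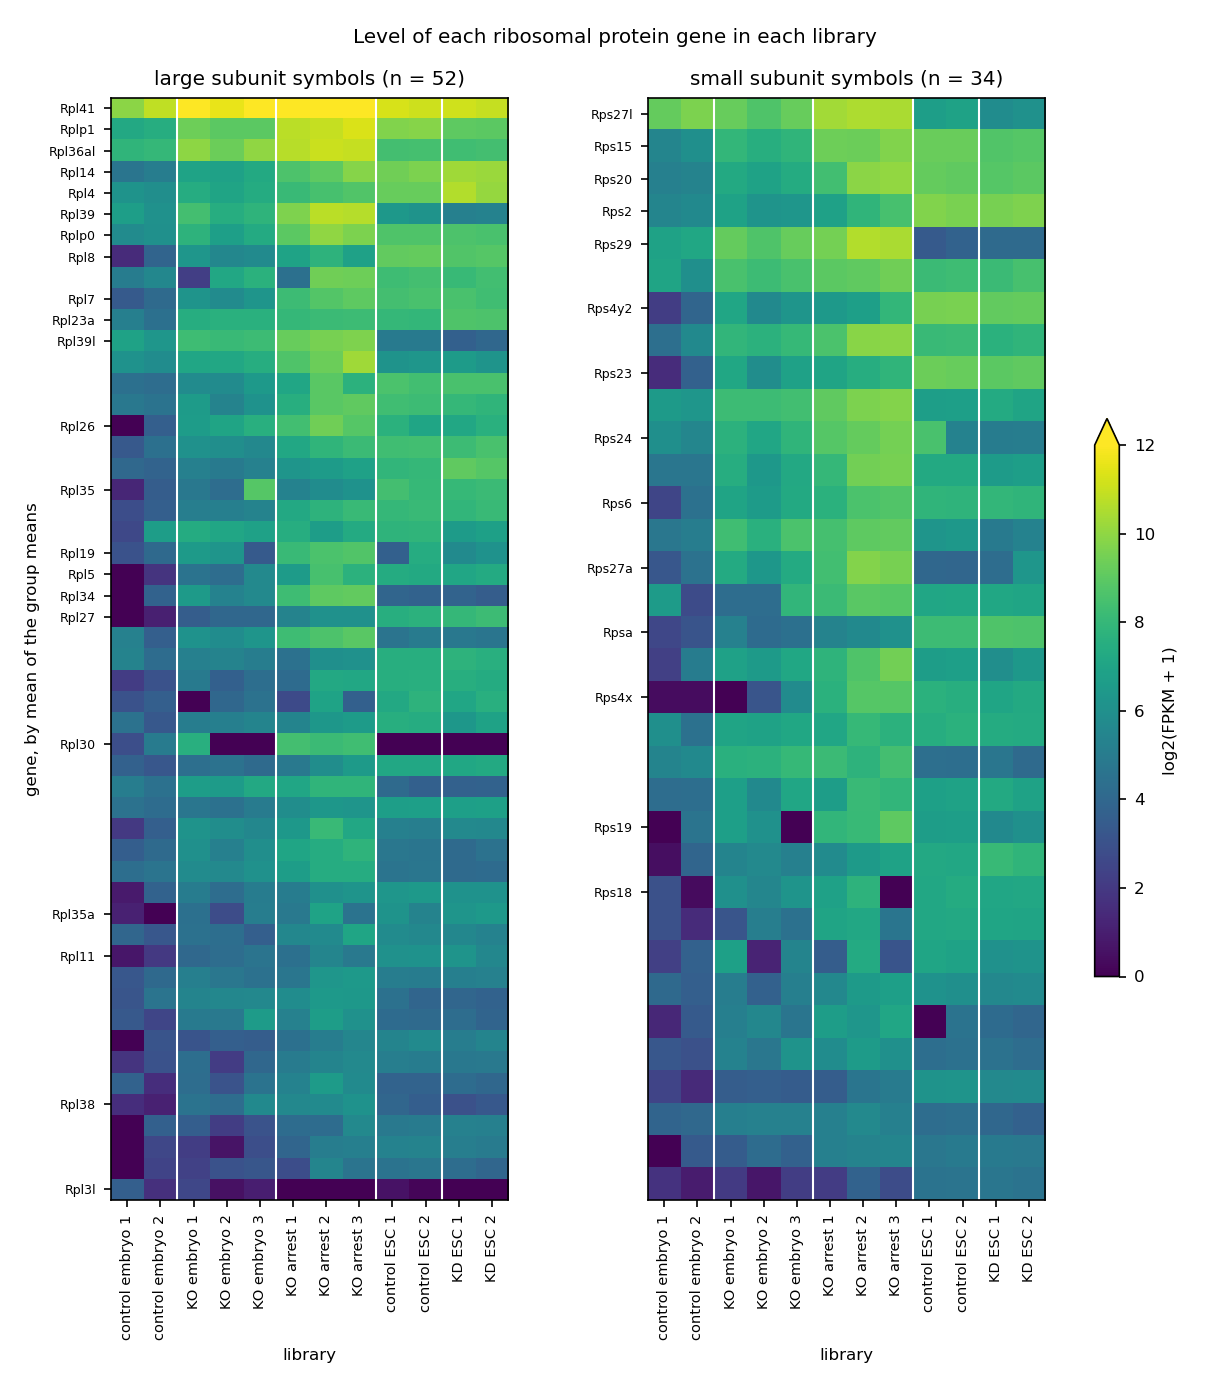
FPKM of the 86 genes (rows) in the 12 libraries (columns), coloured by log2(FPKM + 1) up to 12, with large-subunit and small-subunit genes in separate panels, rows ordered by mean level and names on genes the text describes. Among embryo libraries the controls have the lowest values for most genes and KO arrest the highest, and control embryo 1 holds 10 of the zeros.

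The comparison of KO arrest with control embryo asks the same of the knockout libraries marked as arrested. Nearly the whole set was higher. Of the 86 genes 75 rose and 1 fell, where 16.4% of all genes tested rose and 8.87% fell (25.2% in either direction). The median log2 fold change was 3.45 over the 86 genes and 0.45 over all genes. In 79 genes every KO arrest library lay above both controls (31.3% of all genes), in 1 below (17.5%), and in 6 the groups overlapped. The control embryos are the same libraries as in the comparison before, so the 2 results are not independent.

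Rps4x (mm9 chromosome X, 99380282 to 99383710, minus strand) had the largest rise, from 0.324 and 0.316 FPKM in control embryo to 204, 461 and 452 in KO arrest (log2 fold change 8.05 ± 1.25, adjusted p = 0.00167). Rpl26 (7.05 ± 0.85), Rpl34 (6.91 ± 0.88), Rpl5 (6.69 ± 0.72) and Rps19 (6.01 ± 1.80) followed, each listed at 0 in control embryo 1, with adjusted p of 0.000477, 0.000616, 0.000307 and 0.0328. Without control embryo 1 the changes were 8.06 for Rps4x, 5.23 for Rpl26, 5.02 for Rpl34 and 5.79 for Rpl5, and all 4 still passed, while Rps19 did not (3.69, adjusted p = 0.232).

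Rpl7, Rplp1 and Rpl41 had differences large against their spread. Rpl7 stood at 9.398 and 16.5 FPKM against 299, 443 and 518 (log2 fold change 4.92 ± 0.42, adjusted p = 0.000141). Rplp1 (mm9 chromosome 9, 61761090 to 61762317, minus strand) stood at 151 and 179 against 1712, 1978 and 2532 (3.63 ± 0.32, adjusted p = 0.000157). Rpl41 stood at 972 and 1862 against 19204, 27133 and 25223 FPKM (4.13 ± 0.37, adjusted p = 0.000169). In all 3 genes the lowest KO arrest value was several times the highest control.

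By role, all 4 stalk genes, both of Rpl5 and Rpl11, all 3 at the peptidyl transferase centre, 9 of 10 at the exit tunnel and both bridge genes rose. The tunnel gene that did not pass was Rpl35, with 39.6, 56.9 and 68.8 FPKM against 1.47 and 10.7 (log2 fold change 3.34, adjusted p = 0.0573). Rpl10a rose from 21.9 and 8.86 to 42.2, 79.5 and 95.9 FPKM (2.21, adjusted p = 0.0114). In the small subunit 11 of 13 genes of the decoding centre, head and mRNA path rose, all but Rps14 and Rps18, and Rps18 was listed at 0 in KO arrest 3. All 4 X-linked genes rose, Rps4x, Rpl10, Rpl36a and Rpl39. All 9 genes picked for their link to anaemia rose as well. So did all 5 picked for known mouse mutants, Rpl24, Rpl38, Rpl27a, Rps19 and Rps20. Neither of these 2 lists need hold every such gene. Rpsa, known also as the laminin receptor, rose by 2.88 (adjusted p = 0.00287).

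The gene that fell was Rpl3l (mm9 chromosome 17, 24864774 to 24873094). It stood at 11.6 and 2.14 FPKM in control embryo and was listed at 0 in all 3 KO arrest libraries (log2 fold change −2.65 ± 0.77, adjusted p = 0.0293). Without control embryo 1 it did not pass (−1.65, adjusted p = 0.180). Rps27l rose by 1.05 (adjusted p = 0.0372), and this change turned to −0.32 when the trend of each library with transcript length was removed. It also did not pass without control embryo 1 (0.81, adjusted p = 0.143).

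The markers of other cells again moved with the contrast. Oocyte markers summed to 573 to 833 FPKM in KO arrest against 22848 and 33751, and 4 of 8 tested fell. Fibroblast markers summed to 0.0513 to 2.90 FPKM against 17.1 and 67.2, with Col1a2, Col3a1, Dcn, Lum and Postn at 0 in every KO arrest library and 4 of 7 called lower. Blood markers summed to 0 to 0.743 FPKM against 57.1 and 108, with S100a8 and S100a9 at 0. Cumulus and granulosa cell markers summed to 0 to 2.65 FPKM against 17.1 and 15.5, with 1 of 2 tested called lower. Two-cell markers summed to 242 to 705 FPKM against 590 and 1033, with 3 of 6 called lower and 1 higher. Of the 8 ESC markers 3 were called higher and 2 lower. The part of these differences in the result was not tested. The count ran from 67 to 78 with each library left out and was 67 without control embryo 1, where Rpl3 did not pass either (3.20, adjusted p = 0.0664).

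**Figure D3:**
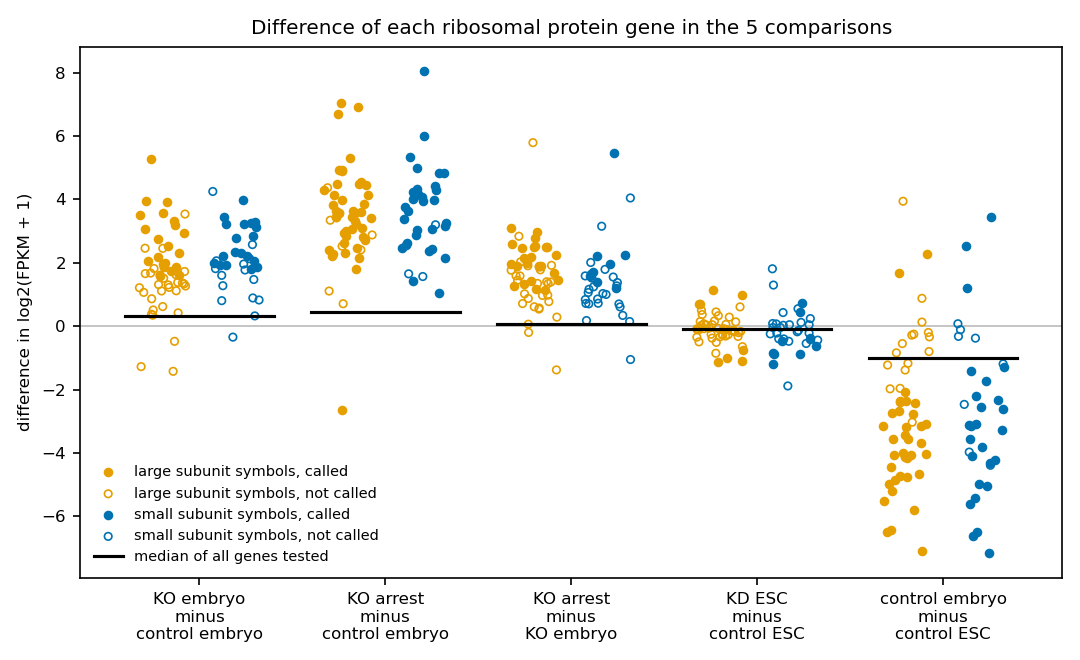
Log2 fold change, from values of log2(FPKM + 1), of each of the 86 genes in each comparison. Points stand for genes, coloured by subunit and filled where they passed the test, and black bars mark the median of all genes tested. The genes lie mostly above 0 in both knockout embryo groups, with medians of 1.86 and 3.45, and around 0 in KD ESC, with a median of −0.12.

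KO arrest was then set against KO embryo, both of which carry the knockout label. Of the 86 genes 32 rose and 0 fell, where 4.93% of all genes rose and 3.65% fell (8.58% in either direction), and the medians were 1.45 and 0.07. In 56 genes every KO arrest library lay above every KO embryo library (19.4% of all genes), in 1 below (17.7%), and in 29 the groups overlapped. The calls were mostly in the large subunit, 24 of 52, with 8 of 34 in the small, and the difference between the subunits was not tested.

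All 4 stalk genes rose. Rplp0, the scaffold of the stalk, stood at 214, 110 and 161 FPKM in KO embryo and at 501, 1022 and 790 in KO arrest (log2 fold change 2.24 ± 0.38, adjusted p = 0.00796). Rplp2 stood at 68.6, 55.9 and 76.0 against 311, 395 and 484 (2.54 ± 0.45, adjusted p = 0.00938). In both genes every KO arrest value was well above every KO embryo value. Rpl12 (1.96, adjusted p = 0.0382) and Rplp1 (1.90, 0.00578) passed as well.

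Among genes that passed, the largest rises were those of Rps4x (log2 fold change 5.47 ± 1.12, adjusted p = 0.0172), Rpl19 (3.11 ± 0.73, 0.0269), Rpl34 (2.96 ± 0.79, 0.0436), Rpl5 (2.77 ± 0.64, 0.0262) and Rpl7 (2.61 ± 0.37, 0.00471). Rpl41 rose from 5112, 3074 and 4600 to 19204, 27133 and 25223 FPKM (2.50 ± 0.33, adjusted p = 0.00339). Rps27l, which did not differ between KO embryo and control beyond its spread, rose here from 588, 418 and 592 to 1284, 1459 and 1405 FPKM (1.39 ± 0.29, adjusted p = 0.0184). Of the 13 genes of the decoding centre, head and mRNA path 2 rose, Rps15 and Rps20.

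In this contrast too the count depends on single libraries. Leaving out KO embryo 1, 2 or 3 gave 13, 8 or 16, and leaving out KO arrest 2 or 3 gave 10 or 9. It was 7 when the trend with transcript length was removed. With the deposited TPM values, which scale every library to the same sum, 14 rose. Oocyte markers summed to 7781 to 11456 FPKM in KO embryo and 573 to 833 in KO arrest, with 3 of 8 tested called lower, Omt2b, Oog3 and Bmp15. Fibroblast markers fell in 6 of 7 cases tested, from sums of 59.2 to 92.9 FPKM to 0.0513 to 2.90, and blood markers in 2 of 2, from 199 to 299 FPKM to 0 to 0.743. Of the 8 ESC markers 2 rose, Tdgf1 and Nanog, and of 6 two-cell markers 1 rose, with sums of 128 to 182 against 242 to 705 FPKM. The part of these differences in the result was not tested. The 3 embryo groups were ordered without overlap, control below KO embryo below KO arrest, in 42 of the 86 genes (48.8%), against 5.54% of all genes tested, and the reverse order held in 0 of them (3.39% of all genes).

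The comparison of KD ESC with control ESC asks whether these genes differ after knockdown in cultured cells. Single genes moved both ways there, in a set whose sum stayed level. Of 84 genes tested 6 rose and 11 fell, where 2.59% of all 12264 genes tested rose and 3.64% fell (6.23% in either direction). The medians were −0.12 over the ribosomal protein genes and −0.09 over all genes. In 17 genes both KD ESC libraries lay above both controls (25.3% of all genes), in 35 below (37.1%), and in 32 the groups overlapped. The sum over all the genes, at 0.981 times control, was 1.05 times for the large subunit and 0.873 times for the small.

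Among the genes that rose were Rpl4, Rpl17, Rpl14, Rpl23a and Rpsa. Rpl4, whose long loop reaches into the exit tunnel (mm9 chromosome 9, 64021194 to 64026369), stood at 599 and 582 FPKM in control ESC and at 1563 and 1111 in KD ESC (log2 fold change 1.16 ± 0.17, adjusted p = 0.0424). Rpl17, at the tunnel exit, stood at 240 and 257 against 541 and 450 (0.99 ± 0.11, adjusted p = 0.0314). Rpl14 stood at 685 and 797 against 1235 and 1186 FPKM (0.71 ± 0.09, adjusted p = 0.0384). None of these groups overlapped. With Rpl23a, at 250 and 246 against 412 and 399 FPKM (0.71 ± 0.06, adjusted p = 0.0264), 3 of the 10 exit tunnel genes rose, and 1, Rpl39, fell.

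Among the largest falls that passed were those of Rpl10l, Rpl39l, Rpl39 and Rps27l. Rpl39, a small tunnel protein, stood at 82.0 and 69.8 FPKM in control ESC and at 35.9 and 38.8 in KD ESC (0.492 times the control mean, adjusted p = 0.0317), and its autosomal relative Rpl39l at 29.5 and 29.2 against 11.6 and 15.2 (−1.09 ± 0.15, adjusted p = 0.0405). In these genes the control and KD values did not overlap. Rps14, Rps19, Rplp1, Rps16, Rps15 and Rps4y2 fell by −0.87 to −0.40 on the log2 scale. Rplp1 went from 846 and 897 to 520 and 508 FPKM.

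With 2 libraries a group this fit has little to estimate a spread from. The count of 17 was 0 without control ESC 1 (25 at an unadjusted p under 0.05), 2 without control ESC 2 and 9 without KD ESC 1. It was also 0 in a fit of all 12 libraries (9 at an unadjusted p under 0.05). The direction of the sum is not settled either, since the log2 ratio was −0.03 in FPKM and 0.018 in TPM. Among the ESC markers Pou5f1 stood at 356 and 353 FPKM in control ESC and 256 and 246 in KD ESC, and 3 of 8 markers fell. Two-cell markers summed to 34.0 and 24.0 FPKM in control ESC and 3.47 and 3.96 in KD ESC, with 2 of 4 tested called lower, Zscan4c and Zscan4d. The part of these differences in the result was not tested.

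Control embryo and control ESC differ in tissue and strain together, and the 2 cannot be told apart. Ribosomal protein genes were far lower in the embryos. Of the 86 genes 57 were lower and 5 higher, where 40.8% of all 14447 genes tested were lower and 12.6% higher (53.4% in either direction). The medians were −3.08 over the 86 genes and −1.01 over all genes, and without Rpl41 the sum was 5.36-fold lower. The log2 ratio of the whole sum, −2.05, was −1.03 with median-of-ratios scaling. In 72 genes both embryo libraries lay below both ESC libraries (55.2% of all genes), in 7 above (19.2%), and in 7 the groups overlapped.

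The 5 largest falls were those of Rps4x, Rpl27, Rps23, Rps4y2 and Rpl8. Rpl27 (mm9 chromosome 11, 101303559 to 101306910) was listed at 0 and stood at 1.05 FPKM in the embryos and at 185 and 207 in ESC (log2 difference −7.10 ± 0.41, adjusted p = 3.27e-06). Rpl8, at the peptidyl transferase centre, stood at 1.78 and 13.4 against 553 and 576 FPKM (−6.48 ± 0.64, adjusted p = 2.98e-05). Rps23 stood at 1.86 and 12.3 against 622 and 601 FPKM (−6.63 ± 0.65, adjusted p = 2.84e-05). The embryo and ESC values did not overlap in any of these 3 genes. Of the 13 genes of the decoding centre, head and mRNA path 12 were lower, and of the 10 tunnel genes 7.

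The 5 genes higher in the embryos were Rps29, Rps27l, Rpl3l, Rpl39l and Rps19bp1. Rps29, a small zinc-binding protein gene (mm9 chromosome 12, 70258709 to 70260173, minus strand), stood at 120 and 139 FPKM in control embryo and at 9.63 and 12.6 in control ESC (log2 difference 3.44 ± 0.38, adjusted p = 5.65e-05). Rps27l (mm9 chromosome 9, 66793925 to 66797316) stood at 566 and 788 against 106 and 121 (2.55 ± 0.25, adjusted p = 2.85e-05). Rpl39l (mm9 chromosome 16, 10170321 to 10175004) stood at 120 and 77.8 against 29.5 and 29.2 (1.69 ± 0.28, adjusted p = 0.000712). These 3 were apart in every library. The count of calls was 58 without control embryo 1, with 55 of them also called in the full fit. Among the genes then no longer called were Rpl3l (1.26, adjusted p = 0.142) and Rps28 (−1.42, 0.0567).

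**Figure D4:**
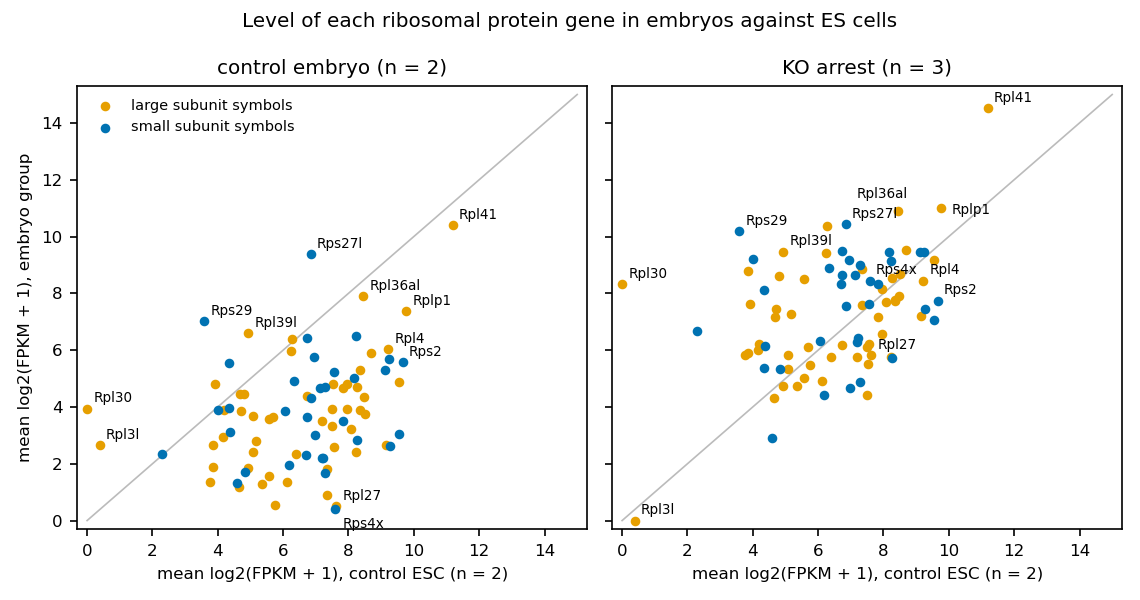
Mean log2(FPKM + 1) of each of the 86 genes in control embryo (left) and in KO arrest (right) against control ESC, with the line of equal values and points coloured by subunit. In the left panel most genes lie below the line, and Rps29, Rps27l and Rpl39l lie above it.

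The effect labelled knockout in embryos and the effect labelled knockdown in ESC were compared gene by gene in a fit of all 12 libraries. Of the 86 genes 14 had a larger effect in embryos and 0 in ESC, where 2.06% of all genes tested had the first and 0.623% the second (2.69% in either direction). In the separate fits of embryos and of ESC, Rplp1, Rps15 and Rpl39l rose in embryos and fell in ESC. The count of 14 was 2 without control ESC 1, 2 without control ESC 2, 4 without KD ESC 1 and 5 without KD ESC 2. Leaving out control embryo 1 or 2 gave 23 or 37, leaving out KO embryo 1 or 3 gave 8 or 7, and leaving out KO arrest 1 gave 22.

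Several of these proteins have a paralogue that can take their place, and the share of each pair's summed FPKM that the paralogue held differed between groups. Rpl22l1 held 27.1% and 56.6% of the sum with Rpl22 in control embryo, 60.6% to 68.1% in KO embryo and 48.5% to 52.6% in KO arrest, against 10.3% to 16.9% in ESC. All embryo libraries were above all ESC libraries. Rpl39l held 53.8% and 53.9% of the sum with Rpl39 in control embryo, 47.1% to 61.0% in KO embryo and 30.2% to 41.2% in KO arrest, against 24.4% to 29.5% in ESC. KO arrest thus lay between the other embryos and ESC. Rpl36al held 94.6% to 99.2% of the sum with Rpl36a in every library, and Rps27l 76.0% to 100% of the sum with Rps27. The 100% was that of control ESC 1, where Rps27 was listed at 0.

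The Rps4 pair changed most. Rps4y2, listed on chromosome 6 (mm9, 148303178 to 148304118), is a single-exon copy that can share reads with the X-linked Rps4x. It held 91.6% and 97.8% of their sum in control embryo, 57.8% to 100% in KO embryo, 18.8% to 35.4% in KO arrest and 78.6% to 80.8% in ESC. KO arrest was below every other library. The 100% was that of KO embryo 1, where Rps4x was listed at 0. Rps4y2 stood at 3.52 and 14.2 FPKM in control embryo, 138, 50.5 and 74.3 in KO embryo, 88.4, 107 and 248 in KO arrest and 553 to 756 in ESC. Rpl3l held 23.1% and 77.2% of its sum with Rpl3 in control embryo and 3.79% to 14.3% in KO embryo. In KO arrest it was listed at 0. These shares were not tested.

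**Figure D5:**
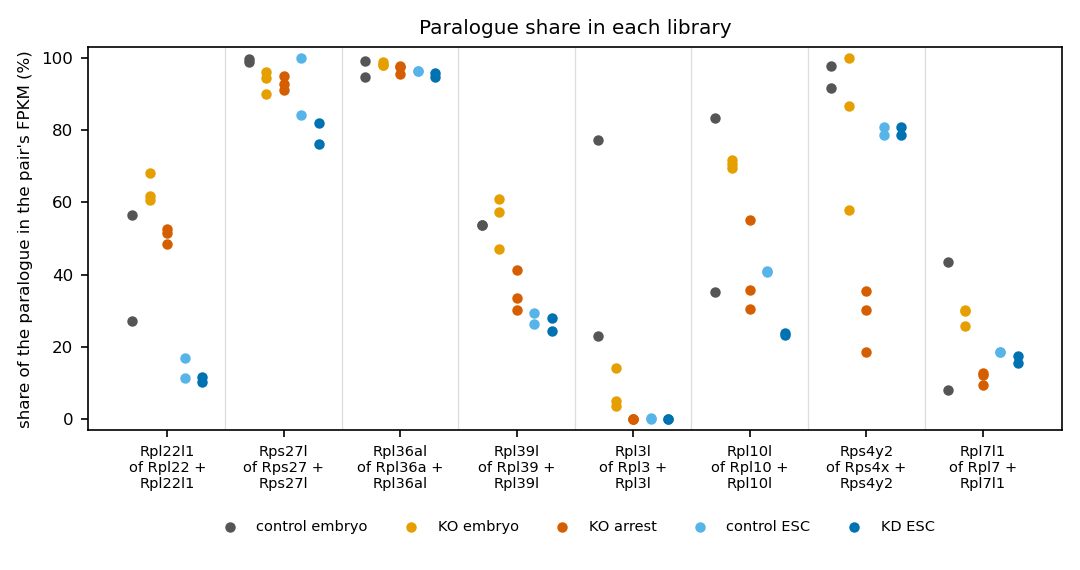
Share (percent) of the summed FPKM of each pair that came from the paralogue, by library, for the 8 pairs. Rpl22l1 and Rpl39l have higher shares in control and KO embryos than in ESC, and Rps4y2 has its lowest shares, 18.8% to 35.4%, in KO arrest.

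Some genes went against their group in single libraries. Rpl30 (mm9 chromosome 15, 34370263 to 34373031, minus strand) stood at 188 FPKM in KO embryo 1 and was listed at 0 in the other KO embryos, at 345, 292 and 318 in KO arrest, and at 0 in all 4 ESC libraries. Rpl35 stood at 453 FPKM in KO embryo 3 and at 26.5 and 18.7 in the other 2. Rps24 stood at 376 FPKM in control ESC 1 and at 32.3 to 39.3 in the other ESC libraries, and Rpl19 at 12.01 FPKM in control ESC 1 and 169 in control ESC 2. Near-identical copies numbered 12 for Rpl30, 4 for Rpl35, 8 for Rps24 and 7 for Rpl19, and their part in these jumps was not tested. In all, 17 of the 86 genes had a value of 0 in some library, 27 of 1032 values.

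The order of the genes by level was steadier within groups than between tissues. Across the 86 genes, which are not independent replicates, log2 values correlated at r = 0.723 between the control embryos, 0.666 to 0.824 among KO embryos, 0.860 to 0.906 among KO arrest, 0.936 between the control ESC and 0.988 between the KD ESC libraries. Between embryo and ESC libraries r was 0.216 to 0.495. In control embryos the highest mean levels after Rpl41 were those of Rps27l, Rpl36al, Rplp1 and Rps29. In control ESC they were those of Rplp1, Rps2, Rps4y2 and Rpl14. FPKM is per length, which is meant to let levels of different genes be set side by side, but reads shared with near-identical copies make this order uncertain. For Rpl41 the search found 0 such copies of its longest annotated coding sequence, 138 bases, the form searched for every gene. Copies of a shorter form can be missed by that search, so shared reads are not excluded. The part of the short length of Rpl41 in its level was not tested.

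Transcripts of these genes are short, with a median length of 886.5 bases against 2751 for the genes tested, and other short genes were also called more often than other long genes. Counts within classes of length are therefore given. Under 800 bases 18 of 35 (51.4%) rose in KO embryo against 9.10% of 692 other genes, and 33 of 35 (94.3%) rose in KO arrest against 28.3%. From 800 to 1200 bases 16 of 30 (53.3%) rose in KO embryo against 8.11% of 876, and 24 of 30 (80.0%) in KO arrest against 32.8%. At 1200 bases and above 6 of 21 (28.6%) rose in KO embryo against 3.95% of 10037, and 18 of 21 (85.7%) in KO arrest against 13.6%. Between KO embryo and KO arrest 12 of 35 (34.3%) rose against 13.01% under 800 bases, 8 of 30 (26.7%) against 14.95% from 800 to 1200, and 12 of 21 (57.1%) against 3.22% above. With the trend of each library with length removed, 24 genes were called in KO embryo in place of 40, and 7 between KO embryo and KO arrest in place of 32. The part of length in the result was not tested further. By promoter letters and by copies the shares called in KO embryo lay closer together than by length. With a run of C and T 16 of 40 genes rose in KO embryo (median log2 fold change 1.82), and without it 11 of 25 (1.86). Genes with up to 1 near-identical copy rose in 9 of 23 cases, those with 2 to 4 in 12 of 21 and those with 5 or more in 18 of 41. In KO arrest against control embryo the same classes of copies rose in 21 of 23, 16 of 21 and 37 of 41 cases. Those shares were no closer together than the shares by length.

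Other genes of the ribosome and its making moved in part alongside. Of 61 ribosome biogenesis genes 23 rose and 0 fell in KO embryo, 37 rose and 0 fell in KO arrest against control, and 2 rose between KO embryo and KO arrest, with medians of 1.84, 1.95 and 0.17. The shares that rose were 37.7%, 60.7% and 3.28%, beside 4.86%, 16.4% and 4.93% of all genes tested, so the last was below that of all genes. Nhp2, a protein of the box H/ACA particles that modify ribosomal RNA, stood at 126 and 127 FPKM in control embryo, 1024, 697 and 1286 in KO embryo and 1008, 1022 and 1451 in KO arrest. The knockout groups overlapped with each other and lay far above the controls. Of 21 regulators of TOP mRNAs 3 rose in KO embryo (14.3%), 7 in KO arrest against control (33.3%) and 1 between the knockout groups (4.76%), with 0 falling and medians of 0.61, 1.00 and 0.17. Larp1, the binder of TOP mRNAs and the gene with the smallest p of this list in both contrasts with control, stood at 2.42 and 3.53 FPKM, then 19.6, 24.9 and 19.1, then 19.96, 20.6 and 21.7.

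Of 76 mitochondrial ribosomal protein genes 19 rose in KO embryo, 57 in KO arrest against control and 13 in KO arrest against KO embryo, with 0 falling, and medians of 1.58, 2.91 and 1.39. Their shares were 25.0%, 75.0% and 17.1%, beside the same 4.86%, 16.4% and 4.93% of all genes. Of 16 other genes with TOP mRNAs 3 (18.8%), 11 (68.8%) and 3 (18.8%) rose in those comparisons. That list holds translation factors but also Gnb2l1, a ribosomal protein gene, and Npm1, which is in the biogenesis list as well. Gnb2l1 was among those that rose in KO embryo, and Npm1 among those that rose between KO embryo and KO arrest. Both rose in KO arrest against control. Of 33 genes of RNA polymerases I and III 6 (18.2%), 11 (33.3%) and 0 rose, and 2, Polr3k and Rrn3, fell between KO embryo and KO arrest. In KD ESC 3 of 63 biogenesis genes rose (4.76%) and 3 fell, and 4 of 75 mitochondrial ribosomal protein genes rose (5.33%) and 0 fell. Over all genes tested 2.59% rose and 3.64% fell there, and nothing is read from counts this small.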

How the data were processed

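Polyadenylated RNA of 12 mouse libraries was measured by Smart-seq2, with groups and replicates as labelled. The authors deposited, per gene and library, an FPKM, a TPM and a coverage signal, per the file headers. The submitters' processing notes list STAR (version given as 0.6.0), StringTie and DESeq2 and the build mm9. For their roles, the annotation and the strand the sources used here give nothing. Read counts were not analysed here, so the deposited FPKM were tested on a log scale and carry no counting interval.

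FPKM were summed per symbol. Rows that name no gene stayed out (227 to 339 rows and 0.549% to 1.19% of the FPKM in a library). In R 4.3.3, limma 3.58.1 with a mean-variance trend was run on log2(FPKM + 1) for genes with at least 1 FPKM in at least 2 fitted libraries, and a gene was called when its p, adjusted by Benjamini-Hochberg over all genes kept, was under 0.05. The pseudocount of 1 understates changes of low genes. The 8 embryo libraries shared a fit, the 4 ESC libraries had their own, and embryos were compared with ESC in a fit of all 12. The fit was also run on simulated data with independent noise, for KO embryo against control embryo and KD ESC against control ESC. Those data held no outlying library and no trend with length, so they do not test the effect of either.

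The genes and lists were chosen with earlier results of these data known. Genes named are those of the role lists, the 5 largest called rises and the 5 largest called falls of each comparison, and those called against the main direction. Some genes that this rule takes are not reported here, while counts are over all genes of a list. Rpl23a, Rpl38, Rpl7, Rpl14, Rpl30 and the genes that jump between replicates were named after their values were seen. Lengths and copies came from GENCODE M21, and promoters from RefSeq GRCm38.p6. Copies (BLAST 2.17.0) had at least 95% identity over at least 90% of the longest annotated coding sequence. No coordinates were converted. Other tables used Python 3.11.15, numpy 2.4.6, pandas 2.3.3, scipy 1.17.1 and matplotlib 3.10.9.

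Alternatives were a pseudocount of 0.1, no filter, a 5 FPKM minimum, scaling by TPM, by median of ratios or by quantiles, library weights, a test against a log2 fold change of 1, fits of other libraries, a replicate block, removal of the length trend and each library left out. Taking values of 0 as missing was added after seeing the data.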

Additional observations from a re-analysis of the deposited data

Results flagged for a closer look

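The effect in embryos (KO embryo minus control embryo) and the effect in ESC (KD ESC minus control ESC) differed, by a test of the difference itself in the limma fit of all 12 libraries, in 14 of the 86 ribosomal protein genes, each with the larger value in embryos. Among them, the difference in log2 fold change was 2.50 ± 0.30 (SE) for Rplp1 (adjusted p = 0.00493), 2.53 ± 0.34 for Rps15 (0.00680) and 2.68 ± 0.38 for Rpl39l (0.00760). These 3 genes rose in embryos and fell in ESC. It was 4.15 ± 0.65 for Rpl38 (0.0119), 2.05 ± 0.35 for Rpl23a (0.0155), 1.94 ± 0.33 for Rpl36al (0.0161), 2.84 ± 0.55 for Rpl27 (0.0291) and 2.38 ± 0.47 for Rpl7 (0.0298). Of these Rpl23a rose in both, by 2.76 in embryos and 0.71 in ESC. It was 2.13 ± 0.42 for Rps19bp1 (0.0312), 3.25 ± 0.66 for Rps9 (0.0353), 4.23 ± 0.87 for Rps23 (0.0372), 3.16 ± 0.67 for Rpl11 (0.0401) and 2.51 ± 0.56 for Rpl39 (0.0477). Rpl39 fell in ESC and did not pass in embryos. Embryos and ESC also differ in strain and in how Dcaf11 was lowered, which cannot be told apart from tissue.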

How the results depend on the processing

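The counts of called ribosomal protein genes kept within 1.5 times their value in all 21 alternatives for KO arrest against control embryo (76 as reported, 52 to 78) and all 24 for control embryo against control ESC (62, 48 to 66). Called under every setting run were 49 of the 76, 39 of the 62, 1 of the 40 for KO embryo against control, and 0 of the 32 for KO arrest against KO embryo, of the 17 for KD ESC and of the 14 differences of effects.

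For KO embryo against control embryo the 40 became 13 with no filter, 18 with median-of-ratios scaling, 5 with weights per library, 21 with only the groups compared, 24 without the length trend, 1 at a log2 fold change of at least 1, and 4 to 46 with a library left out. For KO arrest against KO embryo the 32 became 13 with no filter, 14 with TPM, 21 with quantile normalization, 52 with weights, 49 with only the groups compared, 7 without the length trend, 0 at a log2 fold change of at least 1 (limma, 26 at an unadjusted p under 0.05), and 8 to 47 with a library left out. For KD ESC the 17 became 6 with no filter, 0 with all 12 libraries (9 unadjusted), 0 at a log2 fold change of at least 1 (0 unadjusted), and 0 to 20 with a library left out. The 14 differences between embryo and ESC effects became 22 at a minimum of 5 FPKM, 4 with median-of-ratios scaling, 6 without the length trend, 1 at a log2 fold change of at least 1, and 2 to 37 with a library left out. The cause was not tested.

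The log2 ratio of summed FPKM, 1.65 for KO embryo over control, was 0.90 with median-of-ratios scaling. That of KO arrest over control, 3.57, was 3.06 with TPM and 2.88 with median-of-ratios scaling, and that of KO arrest over KO embryo, 1.93, was 1.48 with TPM. For KD ESC over control −0.03 turned to 0.018 with TPM. For control embryo over control ESC −2.05 was −1.03 with median-of-ratios scaling and −2.28 to −1.86 with a library left out. Rps27l in KO arrest against control reversed to −0.32 without the length trend. Median-of-ratios scaling moved the median of all genes from 0.31 to −0.04, from 0.45 to 0.04 and from −1.01 to −0.47 in KO embryo, KO arrest and control embryo against ESC.

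Deviations of same-numbered libraries from their group means correlated at −0.10 to 0.02, so they gave no sign of pairing by replicate number. In a group of 2 libraries the deviations mirror each other, and a shared batch was not tested. With the replicate block the counts were 6 for KO embryo, 18 for KO arrest against KO embryo, 0 for KD ESC (limma, 32 unadjusted) and 0 for the difference of effects (42 unadjusted), and within 1.5 times elsewhere. Without read counts, the depth behind each value cannot be turned into an interval.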
